A study of Mus musculus with 8 samples.

Results

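The culture described is a single primary culture of cerebellar cells that received no hormone and was harvested at 24 h. Its array (untreated 24 h) was set against the 3 other arrays of untreated cultures, harvested at 6, 16 and 48 h. All cells came from wild-type newborn mice. The age given in the sample labels is P4 to P7 and the methods give P1 to P4. Cerebella were pooled, dissociated and kept for 48 h in serum-free medium that favours neurons, and only then were the cultures left untreated or given 0.1 µM thyroid hormone (T3) for the stated hours. The series holds 8 arrays, 1 for each combination of treatment and time point, so no condition has a replicate and no p-value is given. The 2 arrays of a time point came from the same batch of cells, and between time points batch and time cannot be told apart. In RNA from a whole culture, fewer cells of a type and less RNA per cell cannot be told apart either.

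Genes were selected on the signal values of the 4 untreated arrays themselves, so their levels on those arrays are a description. A probe-set, the group of probes that reads 1 transcript, entered when its signal was 50 or more on at least 1 of the 4 arrays, and 17915 of 45037 probe-sets did. The signal is the arbitrary brightness unit of the MAS 5 software. The untreated 24 h array was above the range of the other 3 for 4581 probe-sets (25.6%) and below it for 4327 (24.2%). It lay at least 2-fold above the highest of the 3 for 693 probe-sets (3.87%) and at least 2-fold below the lowest for 222 (1.24%). With 1 probe-set per gene, the brightest, 10256 genes entered. Of these, 2561 were above the range (25.0%) and 2361 below (23.0%), together 4922, while 364 lay at least 2-fold above (3.55%) and 108 at least 2-fold below (1.05%). Of the 364, 164 reached a signal of 50 on the untreated 24 h array and on none of the other 3, so the filter itself let them in through the array on which they were high.

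Genes next to the 2-fold line show what it separates. Gpr135, just past it, read 109.4 at untreated 24 h, against 54.6, 27.5 and 18.4 at untreated 6, 16 and 48 h, and Gm2137, just short of it, read 130.7, against 65.4, 54.0 and 53.0. On the low side Rab20 read 7.8, against 15.6, 27.1 and 58.8, and Parp14, just short of the line, read 23.9, against 47.7, 121.6 and 178.5.

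The postnatal cerebellum is made mainly of granule neurons and their dividing precursors, beside Purkinje cells, inhibitory interneurons, Bergmann glia and other astrocytes, and cells of the oligodendrocyte lineage. Dissociation also carries over microglia, vessel cells, meninges and choroid plexus. Lists of marker genes for these cells and for common cell states were read on each array, and a list is described by how many of its genes lay outside the range and by its median log2 difference, untreated 24 h minus the mean of the other 3. Over all 10256 genes that median was -0.03. The arrays are labelled as neurons. Of the neuronal markers Tubb3, a neuronal tubulin, read 1019.9 at untreated 24 h and Map2, a dendritic microtubule protein, 1656.3. Nefh and Gabra6, others of the neuronal lists, read 6.3 and 12.3. Glial, microglial and meningeal markers were also measured on this array. Bright markers of other cells were Fabp7 of glia (3422.9), Ttr of choroid plexus (3415.2) and Col3a1 of meninges (1798.9). Signals of different probe-sets are not read here as relative amounts of RNA or of cells.

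Astrocyte genes stood far above the other untreated cultures. Aqp4, the water channel of astrocyte endfeet, read 1053.9 at untreated 24 h, against 63.6, 21.4 and 39.1 at untreated 6, 16 and 48 h, which is 16.6-fold over the highest of the 3. Gfap, the intermediate filament of astrocytes, read 215.9, against 21.6, 15.5 and 19.5. For Aldh1l1, a folate enzyme used as an astrocyte marker, the 24 h value was 551.7, against 79.9, 88.2 and 72.0. The 24 h value lay far from the other 3 in each of these genes, and for Gfap and Aldh1l1 the other 3 lay within 2-fold of each other. Of 23 astrocyte and Bergmann glia genes that entered (26 listed), 15 were above the range, 9 of them at least 2-fold, and none was below. The median difference was 0.89, and 3 of the 23 entered through the untreated 24 h array alone. Mlc1, a membrane protein of astrocyte endfeet (161.0, against 25.5, 4.6 and 11.2), Ttyh1, a membrane protein of glia (496.6, against 79.3, 43.1 and 45.3), and the glutamate transporters Slc1a3 (639.0, against 166.5, 83.3 and 113.6) and Slc1a2 (144.0, against 68.4, 32.9 and 20.1) were among the 9. Fabp7, the fatty acid binding protein of Bergmann and radial glia and the brightest of the list at this time, read 3422.9, against 1249.0, 1120.1 and 1221.4.

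Not all astrocyte genes took part. Gja1, which encodes the gap junction protein connexin of astrocytes, read 2594.7 at untreated 24 h, against 1170.5, 3301.2 and 3111.4, and Gjb6, another connexin, read 179.6, against 13.5, 372.7 and 700.5. Clu, a secreted chaperone, Glul, glutamine synthetase, Ndrg2 and Apoe also lay within the range of the other 3. In these 6 genes untreated 6 h was the lowest of the 4 arrays.

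**Figure D1:**
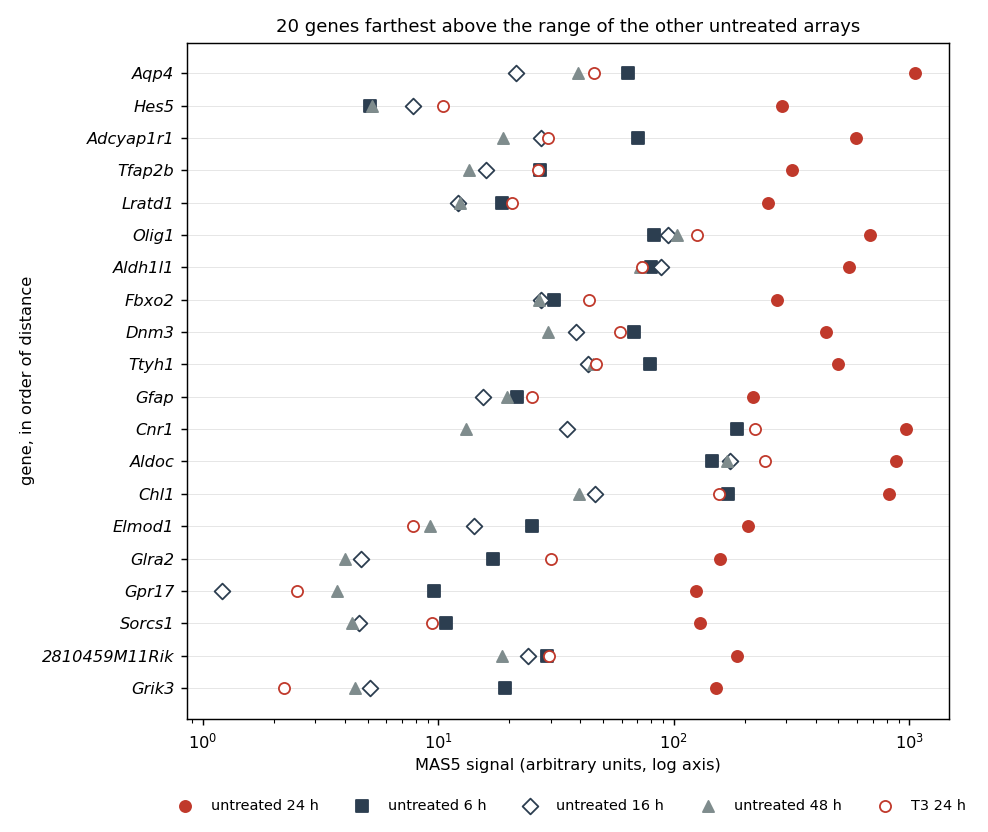
MAS5 signal on a log axis for the 20 genes farthest above the range, in order of distance with 32 added to every signal. Filled red circles are untreated 24 h, the dark squares, open diamonds and grey triangles the untreated 6, 16 and 48 h arrays, and open red circles T3 24 h. The distance from the highest of the 3 other untreated arrays runs from 4.86-fold to 37.0-fold. The T3 24 h value lies below that of untreated 24 h in every row. The rows were chosen as extreme on untreated 24 h, so nothing is read from that gap.

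Of these 20 genes, 16 had untreated 6 h as the highest of the other 3, and in 9 the other 3 lay within 2-fold of each other. Adcyap1r1, a receptor for the peptide PACAP, read 594.8 at untreated 24 h, against 70.4, 27.3 and 18.8 at untreated 6, 16 and 48 h. Cnr1, the cannabinoid receptor of the brain, read 972.1, against 185.2, 35.1 and 13.1, and Chl1, an adhesion protein of neurons, 820.6, against 169.0, 46.3 and 39.5. These 3 descended with time in the other cultures, from which the 24 h culture stood apart. Aldoc, an aldolase of astrocytes and Purkinje cells, read 881.8, against 145.6, 172.8 and 167.5, and Dnm3, a dynamin of synapses, 442.4, against 67.7, 38.3 and 29.1. Fbxo2, a ubiquitin ligase subunit that binds glycoproteins, read 272.8, against 31.0, 27.2 and 26.6, and Lratd1 249.8, against 18.7, 12.1 and 12.3. Sorcs1, a sorting receptor, Elmod1 and the uncharacterized 2810459M11Rik make up the rest beside genes given with their lists. Of the 20, 8 genes have 9 further probe-sets that entered, and all 9 were at least 2-fold above the range too. However, each of the 9 entered through the untreated 24 h array alone and had to be above the range. No agreement between probe-sets is therefore read from them.

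Progenitor and oligodendrocyte lineage genes were also divided, some above the range and some inside it. Hes5, a repressor that Notch signalling switches on in radial glia and progenitors, had the largest fold of the 20 leading genes. It read 288.9 at untreated 24 h, against 5.1, 7.8 and 5.2, 37.0-fold over the highest. Sox2, a progenitor and glial transcription factor, read 527.3, against 146.6, 258.3 and 243.0, and Id4, an inhibitor of basic helix-loop-helix factors, 421.8, against 94.3, 150.5 and 134.0. Vim, Nes, Hes1, Prom1 and Msi1, other genes of the list, lay within the range. In all, 4 of 9 radial glia and stem cell genes were above it and none below. Of the 9, 1 (Hes5) entered through the untreated 24 h array alone and had to be above.

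Olig1, a transcription factor of the oligodendrocyte lineage, read 681.5 at untreated 24 h, against 82.1, 94.6 and 102.6. Gpr17, a receptor of differentiating precursors, read 124.1, against 9.6, 1.2 and 3.7. Bcan and Vcan, proteoglycans of the matrix around precursors and neurons, read 658.8, against 170.9, 148.7 and 119.4, and 742.0, against 114.0, 131.9 and 351.5. The list thus had 5 of 7 genes above the range, all 5 by at least 2-fold, with a median difference of 2.19. Of the 7, 1 (Gpr17) entered through the untreated 24 h array alone and had to be above. Pdgfra, the growth factor receptor of the precursors that mesenchymal cells also express, went the other way and was below the range, at 242.4 against 387.8, 435.6 and 632.9. Cspg4 lay inside. Olig2 and Sox10, transcription factors that define the lineage, did not reach a signal of 50 on any untreated array and read 23.5 and 16.1 at untreated 24 h.

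Some myelin genes were high as well. Mbp, myelin basic protein, read 826.1 at untreated 24 h, against 329.3, 156.5 and 182.1, and Bcas1, a marker of oligodendrocytes that begin to make myelin, 744.8, against 187.2, 107.8 and 83.0. Cnp, a myelin enzyme, read 631.2, against 190.0, 183.3 and 264.0. Of 7 genes 5 were above the range and none below (median 1.59). Of the 7, 1 (Ugt8a) entered through the untreated 24 h array alone and had to be above. Tcf7l2, another of the 5, was barely above, at 58.9 against 26.2, 58.6 and 45.3. Cldn11 and Mal, 2 membrane proteins of myelin, lay inside, with untreated 6 h the lowest of the 4.

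Several genes of inhibitory neurons were highest in the same culture. Tfap2b, a transcription factor of the GABAergic lineage, read 316.3 at untreated 24 h, against 27.0, 15.9 and 13.5, and its relative Tfap2a 186.4, against 65.1, 25.4 and 29.1. Ptf1a, which specifies GABAergic neurons in the cerebellum, read 54.1, against 11.9, 2.6 and 4.1. Gad1, the enzyme that makes GABA, read 467.4, against 246.7, 47.8 and 22.4, and Slc32a1, the vesicular GABA transporter, 96.0, against 49.1, 18.6 and 9.6. For Gad1 and Slc32a1 untreated 6 h was the second highest array, while for Tfap2b the other 3 lay close together. In the list 7 of 8 genes were above the range and none below, with a median of 2.32. However, 4 of the 8 (Tfap2b, Ptf1a, Slc32a1 and Pvalb) entered through this array alone and had to be above. Of the others, Gad1, Tfap2a and Kit were above. Lhx1, which marks Purkinje and other GABAergic cells, was inside, at 152.2 against 389.9, 103.4 and 36.8.

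Purkinje cell genes were nearer to the 6 h culture. Calb1, a calcium buffer, read 371.3 at untreated 24 h, against 266.8, 53.8 and 38.8, and Pcp4, a calmodulin-binding peptide, 998.1, against 749.4, 346.3 and 136.3. Pcp2, a defining Purkinje gene, was inside the range at 180.1, against 206.3, 34.0 and 22.4. None of the 7 genes lay at least 2-fold above, 4 were above and none below. Eomes, the transcription factor of unipolar brush cells, read 621.1, against 202.8, 92.9 and 28.4, 3.06-fold over the highest. Of the 3 genes of unipolar brush cells and cerebellar nuclei that entered, only Eomes was above the range. Meis2 (99.8, against 10.6, 93.4 and 103.2) and Calb2 (249.7, against 568.1, 232.5 and 69.8) were inside.

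Granule cell genes did not follow one course. Among 13 genes of granule cell precursors, Atoh1, which specifies the lineage, was above the range (270.1, against 232.5, 135.9 and 27.6), Sfrp1, an inhibitor of Wnt signalling, was below it, and the other 11 were inside. Pax6, a transcription factor of precursors and young granule neurons, read 739.4, against 853.2, 309.7 and 64.2. Of 16 granule neuron genes 7 were above and none below, and 1 of the 16 (Vsnl1) entered through the untreated 24 h array alone. The median difference was 1.68, which was 0.70 without untreated 48 h and 2.62 without untreated 6 h. Cbln1, the synaptic organizer that granule neurons secrete, read 1476.9, against 714.1, 82.8 and 65.7, and Cadps2, a vesicle release factor, 1947.1, against 854.2, 251.3 and 97.4. Neurod1 and Reln were inside the range, close under untreated 6 h.

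All 16 granule neuron genes had untreated 6 h as the highest of the other 3, as had the 13 general neuronal and the 13 synaptic vesicle genes. In both of the last lists 11 of 13 genes were above the range and none below, with medians of 2.09 and 1.88. Of the 13 synaptic vesicle genes 1 (Rph3a) entered through the untreated 24 h array alone. Tubb3 read 1019.9 at untreated 24 h, against 415.3, 114.4 and 49.3 at untreated 6, 16 and 48 h. Dcx, a microtubule protein of young neurons, read 2098.5, against 1123.8, 311.0 and 110.6, and Sv2a, a vesicle glycoprotein, 262.1, against 102.0, 55.2 and 39.7. The untreated cultures do not follow the order of hours here. In all 13 general neuronal genes untreated 16 h read lower than untreated 24 h, and untreated 48 h was the lowest.

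Over the 364 genes at least 2-fold above the range, the highest of the 3 others was untreated 6 h for 274 (75.3%), 16 h for 44 and 48 h for 46. The median spread of the 3 others was 1.23 on the log2 scale, and for 156 genes the 3 lay within 2-fold of each other. Over the whole array untreated 6 h was also the nearest of the 3. Its log2 signals over the probe-sets that entered correlated with those of untreated 24 h at 0.894, those of untreated 16 h at 0.844 and of untreated 48 h at 0.777. Untreated 24 h and T3 24 h correlated at 0.919, but T3 24 h stood higher with T3 16 h (0.936) and untreated 16 h (0.928). These values are a description across probe-sets that are not independent.

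Genes of microglia, the immune cells of the brain, were low. Csf1r, the growth factor receptor on which microglia depend, read 53.9 at untreated 24 h, against 295.5, 125.6 and 378.5 at untreated 6, 16 and 48 h. Ctss, a lysosomal protease, read 90.9, against 485.6, 213.0 and 779.8, and Tyrobp, the adaptor of activating receptors, 22.9, against 112.9, 51.9 and 264.9. Of 15 microglial genes 12 were below the range, 5 of them at least 2-fold, and none was above (median -1.90). Their summed signal was 668.3, against 2139.6, 1519.8 and 4655.5. Aif1, C1qc and Tmem119 were inside, because untreated 16 h or 6 h read lower still.

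**Figure D2:**
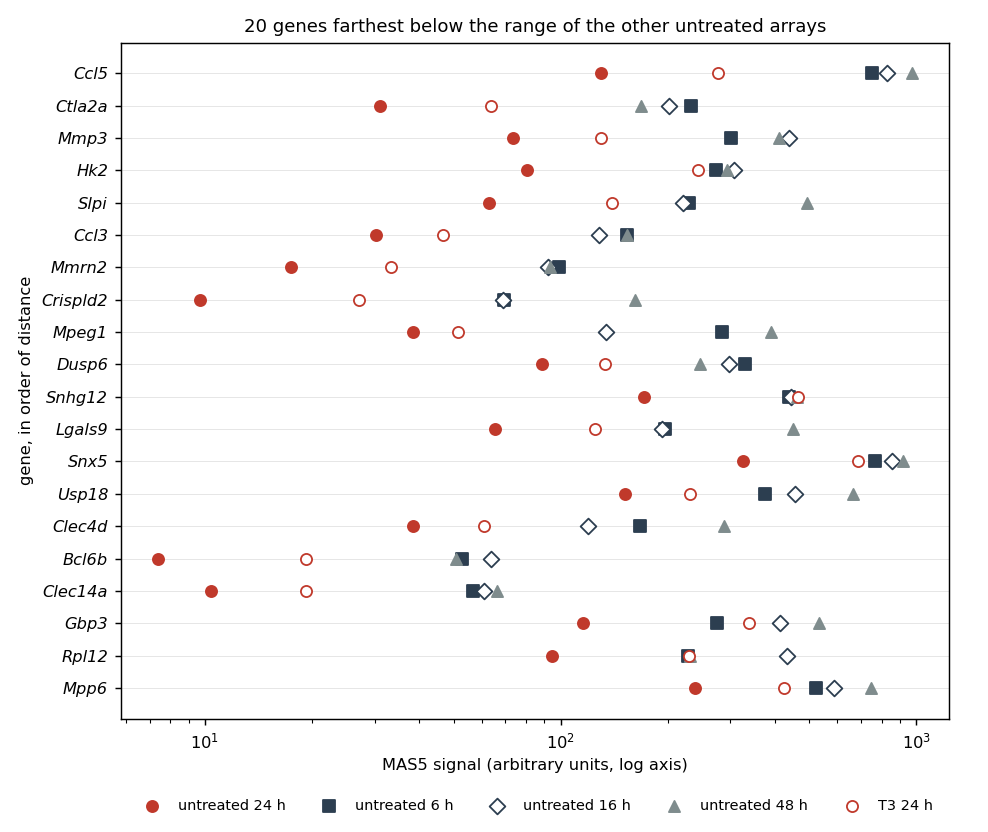
MAS5 signal on a log axis for the 20 genes farthest below the range, drawn with the same symbols. The untreated 24 h value lies from 2.20-fold to 7.11-fold under the lowest of untreated 6, 16 and 48 h, and T3 24 h lies between that value and the other arrays for most genes.

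The gene farthest below was Ccl5, a chemokine that attracts T cells and monocytes. It read 129.8 at untreated 24 h, against 749.1, 828.4 and 971.4, 5.77-fold under the lowest. Ccl3, another chemokine, read 30.2, against 153.5, 128.3 and 153.5. Mpeg1, a pore-forming protein of macrophages, read 38.5, against 284.6, 134.2 and 389.5, and Clec4d, a lectin of myeloid cells, 38.4, against 167.4, 119.3 and 288.4. By the rule that chose them, none of these overlapped with the other 3 cultures. Slpi, a secreted protease inhibitor, read 62.8, against 229.5, 220.7 and 491.7, and Mmp3, a matrix protease, 73.3, against 301.7, 439.5 and 411.1. Crispld2, a secreted protein, had the largest fold of the 20 low genes, 7.11, at 9.7 against 69.3, 69.0 and 162.2. In 15 of these 20 genes the other 3 cultures lay within 2-fold of each other. Among them was Dusp6, a phosphatase that turns off ERK, at 88.5 against 329.6, 297.4 and 246.3. Another was Snhg12, a host gene of small nucleolar RNAs, at 172.2 against 439.4, 445.4 and 460.9. Lgals9, a secreted lectin, Ctla2a, a protease inhibitor, Snx5, a sorting nexin, Rpl12, a ribosomal protein, and Mpp6, a scaffold protein, complete this end beside the genes given with their lists. Of the 20, 4 genes have 6 further probe-sets that entered, and 4 of these 6 were below the range.

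Vessel genes formed another share of that end. Bcl6b, a transcription factor of endothelium, read 7.4 at untreated 24 h, against 52.7, 63.9 and 50.7, and Clec14a, an endothelial surface protein, 10.4, against 56.9, 60.9 and 66.4. Mmrn2, a protein of the endothelial matrix, read 17.5, against 98.9, 92.2 and 93.1. Of 7 endothelial genes on the list 5 were below the range and none above, led by the transcription factor Sox17 (18.5, against 68.8, 89.7 and 73.0), and the median was -1.18. The pericyte gene Rgs5 was below as well, at 46.4 against 127.3, 129.5 and 123.3.

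Genes of meninges and other mural cells did not move with them. Of 18 only Rgs5 and Vtn were below the range and none was above. Col1a2, a fibrillar collagen, read 1591.2, against 249.4, 2056.0 and 2957.6, and Dcn, a matrix proteoglycan, 1218.9, against 603.2, 2293.9 and 2849.2. In the choroid plexus list 2 of 10 genes were below and none above, and Ttr, which carries thyroid hormone in cerebrospinal fluid, was one of them and read 3415.2, against 3880.6, 4477.7 and 4131.9. Untreated 6 h held the lowest value for most genes of both lists, and the 24 h culture lay between it and the later ones.

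Interferon response genes were low with the immune genes. Usp18, a protease that removes the ubiquitin-like protein ISG15, read 151.7 at untreated 24 h, against 375.3, 455.9 and 665.0. Irf7, a transcription factor that amplifies the response, read 99.8, against 236.7, 309.8 and 484.9, and Gbp3, an interferon-induced GTPase, 115.3, against 276.0, 415.3 and 533.9. Of 10 genes 7 were below the range and none above, with a median of -1.64. B2m, H2-K1 and H2-D1, parts of the class I antigen-presenting complex, were inside.

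The promoters of these genes can be read in RefSeq sequence of the mouse genome (GRCm38.p6), from 250 bases before to 50 after the start of each gene. Interferon-activated factors bind the interferon-stimulated response element, searched here as GAAANNGAAA on both strands (the capitals read as its reverse complement where it lies on the opposite one). The motifs were chosen after the values were seen. Of the 7 genes below the range 6 have a promoter in the table and 4 hold these letters, against 3.6% of the 8334 kept genes with a promoter and 4.0% of all 27025 promoters. In the whole list 5 of 9 promoters hold it, the fifth being that of B2m, which was inside the range. Among the 108 genes at least 2-fold below the range, 77 have a promoter and 12 hold the element (15.6%). Among those at least 2-fold above, 10 of 274 hold it (3.6%). The 4 stretches are shown because they carry the element next to a low value, with the matching letters in capitals, on the strand of the gene. They lie at chr19:34640775-34640823, chr19:34583363-34583426, chr3:142559989-142560024 and chr5:92349083-92349112.
Ifit1: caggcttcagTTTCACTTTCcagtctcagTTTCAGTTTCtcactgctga
Ifit3: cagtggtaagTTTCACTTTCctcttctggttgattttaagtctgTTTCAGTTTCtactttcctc
Gbp3: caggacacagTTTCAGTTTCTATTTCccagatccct
Cxcl10: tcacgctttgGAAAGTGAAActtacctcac
Ifit1 and Ifit3, which restrain viral RNA, read 227.0, against 255.0, 806.6 and 1416.3, and 164.1, against 244.1, 683.1 and 1148.4. Gbp3 holds 2 overlapping copies. Cxcl10, a chemokine named for its induction by interferon, read 43.1, against 81.3, 158.2 and 585.2. A match in these letters is a description of the sequence and was not tested as a binding site.

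Base composition was read in the same windows, and no difference was tested. The median number of CG pairs in the 300-base window was 19 for genes at least 2-fold above the range and 8 for genes at least 2-fold below, beside 23 for all kept genes. The TATA box, searched as TATAAA, was present in 8.4% and 19.5%, beside 8.5%, and the GC box bound by Sp1, searched as GGGCGG, in 69.0% and 36.4%, beside 71.4%. A site for the Notch factor RBPJ, searched as TGGGAA, was present in 31.4% and 26.0%, beside 26.2%.

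A further group of low genes belongs to the amino acid response, in which shortage of amino acids or other stress raises the factor ATF4 and its targets. Atf4 itself read 1319.4 at untreated 24 h, against 2085.3, 2048.3 and 2127.3 at untreated 6, 16 and 48 h. Asns, asparagine synthetase, read 1120.0, against 2527.7, 1999.0 and 1603.0. Sesn2, a stress-induced inhibitor of growth signalling, read 336.8, against 753.7, 826.1 and 600.5. In the cell stress list 7 of 10 genes were below the range and none above (median -0.82).

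After these values were seen, 2 lists were added and are described on that footing. Of 21 genes of amino acid and one-carbon metabolism 17 were below the range and none above (median -0.81). Mthfd2, a mitochondrial folate enzyme, read 397.8, against 1434.1, 957.9 and 816.9, and Eif4ebp1, a brake on translation, 654.4, against 1342.7, 1520.1 and 1604.5. Slc3a2, the heavy chain of amino acid transporters, read 1376.9, against 2515.4, 2166.7 and 2357.6. Of 19 cytoplasmic tRNA synthetases, the enzymes that load tRNA with amino acids, 15 were below and none above (median -0.46). Tars read 547.1, against 1448.5, 1169.9 and 963.9, and Cars 135.6, against 307.9, 307.5 and 317.7.

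ATF4 binds the C/EBP-ATF element, searched as TGATGNAA on both strands. It was present in 3 of 7 promoters of the cell stress genes below the range and in 4 of 14 of the amino acid genes below the range. In the synthetase list 5 of 12 promoters held it, against 2.7% of the kept genes and 4.5% of all promoters. The lists were made of amino acid response genes, 2 of them after the values were seen, so nothing is read from these shares. Asns counts in both the stress and the amino acid list. Among genes at least 2-fold below the range 4 of 77 promoters held the element (5.2%), and among those at least 2-fold above 7 of 274 (2.6%). The stretches below stand for these lists, with the element in capitals, on the strand of the gene, at chr6:7693215-7693242, chr2:119351039-119351066, chr7:126625563-126625590, chr6:55037961-55037988 and chr15:11399656-11399683.
Asns: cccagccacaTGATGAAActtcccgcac
Chac1: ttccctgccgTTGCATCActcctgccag
Nupr1: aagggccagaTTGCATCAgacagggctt
Gars: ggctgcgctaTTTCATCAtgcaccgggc
Tars: aggagtcccgTTGCATCAgctggttagc
In Asns the element starts 23 bases before the start of the gene, in Tars 15 and in Gars 30. Chac1, which degrades glutathione, read 413.2 at untreated 24 h, against 1002.2, 675.4 and 539.3, and Nupr1, a stress-induced chromatin protein, 359.6, against 520.3, 804.0 and 1166.7. Gars, which charges glycine tRNA, read 1120.6, against 1666.2, 1747.3 and 1484.0.

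Of 20 cell division genes 1 was above the range and 4 were below, and Mki67, a protein of dividing cells, read 932.6, against 2115.2, 1253.5 and 581.1. Hk2, the glycolytic enzyme hexokinase 2 and the fourth of the leading low genes, read 80.4, against 274.3, 307.4 and 294.6. In the hypoxia list to which it belongs 4 of 12 genes were below and none above, and Vegfa, the vessel growth factor, read 140.0, against 198.8, 317.5 and 291.2. Of the cholesterol synthesis genes 6 of 10 were above the range and none below, and Dhcr7, which makes the last step to cholesterol, read 312.1, against 118.0, 121.4 and 38.3. Of 7 reference genes 6 were inside the range, Actb at 3284.2, against 3382.3, 3217.9 and 3401.7.

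**Figure D3:**
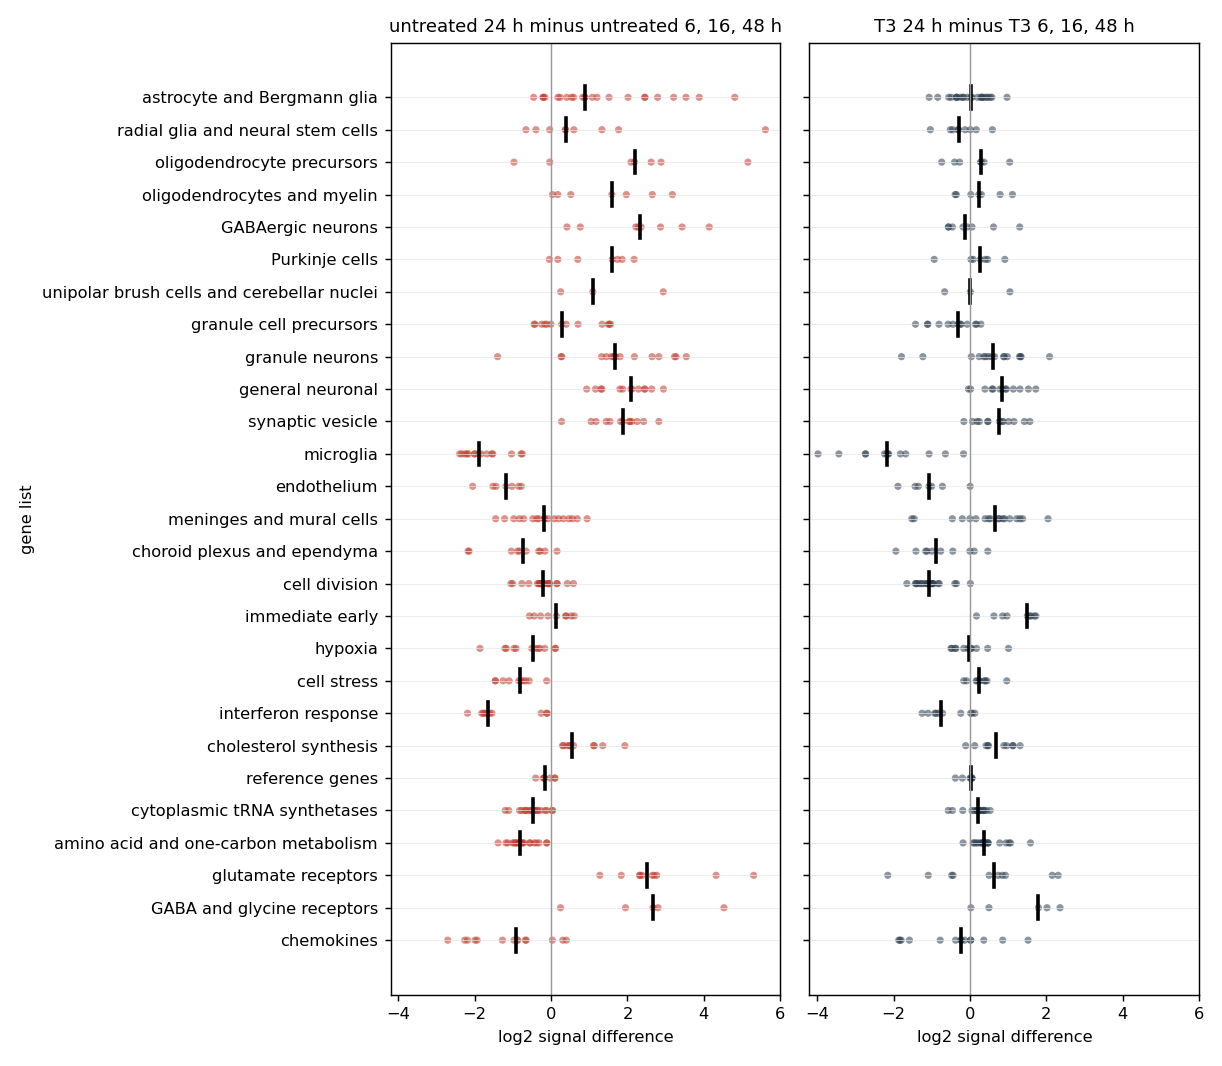
Each point is 1 gene and the black bar the median of its list. The left panel shows log2 signal of untreated 24 h minus the mean of untreated 6, 16 and 48 h, the right panel T3 24 h minus the mean of T3 6, 16 and 48 h. Glial and GABAergic lists sit right of 0 on the left and around 0 on the right, while microglial and endothelial lists sit left of 0 on both, and the last 5 lists were chosen after the values were seen.

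The rule for being outside the range did not use the T3 arrays, which hold the same batches of cells with hormone, although the brightest probe-set of a gene was taken over all 8 arrays. Of all 17915 probe-sets, T3 24 h was above the range of T3 6, 16 and 48 h for 19.8% and below it for 19.7%. The same shares over the 10256 genes were 18.5% and 19.7%. Of the 693 probe-sets at least 2-fold above in the untreated cultures, 341 (49.2%) were above among the T3 arrays and 61 (8.80%) below. Of the 222 at least 2-fold below, 181 (81.5%) were below among the T3 arrays and 9 (4.05%) above. The median log2 difference of the high probe-sets was 2.15 in the untreated cultures and 0.57 in the T3 cultures, and that of the low ones was -1.71 and -1.01. The untreated values of both sets are large because the sets were chosen on them, and 355 of the 693 entered through the untreated 24 h array alone, so nothing is read from the gap to the T3 values. No difference between these shares was tested, since each rests on 1 array against 3. With no filter on the signal the share on the same side was 39.9% of the high and 42.9% of the low probe-sets. Over all unfiltered probe-sets T3 24 h was above its range for 22.0% and below it for 20.7%.

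Most astrocyte genes were inside the T3 range. Aqp4 read 45.8 at T3 24 h, against 76.8, 16.8 and 39.1 at T3 6, 16 and 48 h. Gfap read 25.0, against 28.2, 11.9 and 19.0. Aldh1l1 was below its T3 range, at 73.0 against 78.8, 108.8 and 94.0. Of the 23 astrocyte genes 4 were above the T3 range and 2 below, with a median of 0.02, and for the 8 GABAergic genes the counts were 2 and 1 and the median -0.13. Among the T3 arrays 9 of the 20 leading high genes were above the range, 9 inside it and 2, Aldh1l1 and Elmod1, below. Hes5 was one of the 9 above, at 10.4, against 6.2, 9.4 and 5.7.

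Neuronal genes gave mixed values. At T3 24 h the general neuronal list had a median of 0.85, with 4 of 13 genes above the T3 range and none below, and the synaptic vesicle list 0.77, with 3 of 13 above, near the share of all genes. Of the 16 granule neuron genes 2 were above the T3 range and 1 below (median 0.61). L1cam, an adhesion protein of axons, read 703.4 at T3 24 h, against 460.2, 163.3 and 128.6 at T3 6, 16 and 48 h, beside 929.9 at untreated 24 h. At least 2-fold above the range on both 24 h arrays were 22 genes, where T3 24 h was that far above for 0.595% of all genes. Among them, named after their values were seen, Glra2, a glycine receptor subunit, read 157.7 at untreated 24 h, against 17.1, 4.7 and 4.0, and 30.1 at T3 24 h, against 10.0, 4.4 and 4.6. Jakmip1, a microtubule protein of neurons, read 306.0, against 96.2, 71.1 and 39.5, and 205.1, against 46.6, 46.2 and 25.5.

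**Figure D4:**
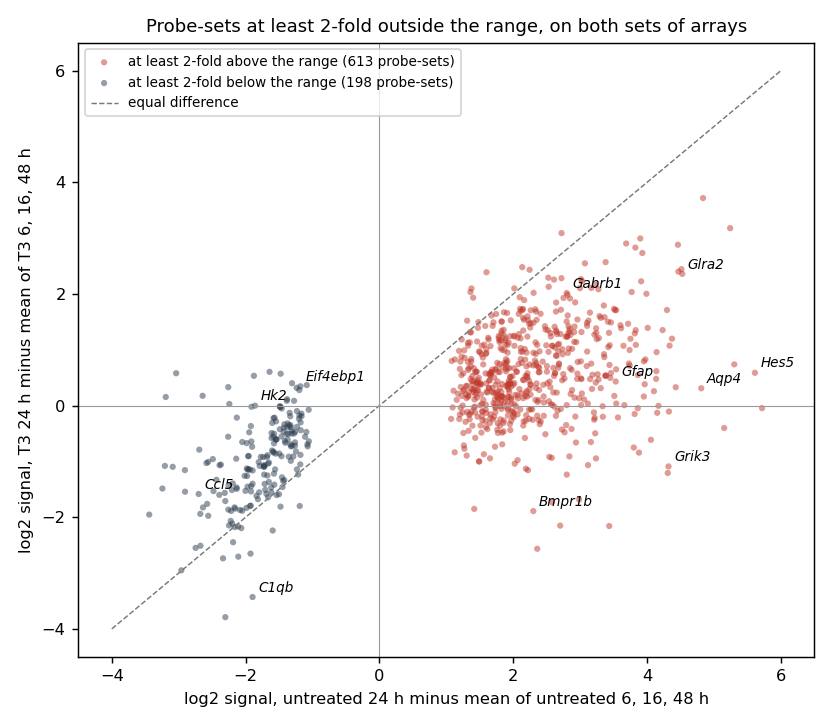
Each point is 1 probe-set with a gene symbol at least 2-fold outside the untreated range, 613 above in red and 198 below in dark blue. The horizontal axis is the log2 difference of untreated 24 h from the mean of untreated 6, 16 and 48 h and the vertical axis that of T3 24 h from the mean of T3 6, 16 and 48 h. The red points lie mostly under the dashed line of equal difference, many near 0 on the vertical axis. The points were chosen on the untreated values, so nothing is read from their place against that line. Of the 198 blue points 182 have a T3 difference below 0.

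The low microglial and vessel genes were shared. Csf1r read 62.1 at T3 24 h, against 362.0, 136.8 and 446.1, and Ctss 116.5, against 455.9, 277.6 and 1087.7. Among the T3 arrays 13 of 15 microglial genes were below the range and none above, 10 of them at least 2-fold (median -2.18), and of the 7 endothelial genes 5 were below (median -1.07). Ccl5 read 276.3 at T3 24 h, against 874.4, 879.3 and 739.1. At least 2-fold below the range on both 24 h arrays were 38 genes, where T3 24 h was that far below for 0.8% of all genes. Of the 20 leading low genes 17 were below the T3 range, Hk2 and Gbp3 were inside it and Snhg12 was above.

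The amino acid genes were not. At T3 24 h none of the 21 was below its T3 range and 13 were above, with a median of 0.37. Asns read 2560.6, against 2442.3, 2061.5 and 1449.3. Of the 19 synthetases 10 were above and 2 below (median 0.22), and of the 10 cell stress genes 4 were above and none below. Every amino acid gene and every cell stress gene was higher at T3 24 h than at untreated 24 h, by a median log2 of 1.19 and 0.90. The amino acid list was drawn up after its low untreated values were seen, so nothing is read from its gap. All 10 interferon genes and 11 of 12 hypoxia genes were also higher at T3 24 h, while all 20 cell division genes were lower. Of 9 immediate early genes, which respond to stimulation within minutes, 2 were above the untreated range at 24 h and 7 above the T3 range, Jun at 1308.3, against 426.7, 357.3 and 405.4. Cell division genes were below the T3 range in 18 of 20.

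**Figure D5:**
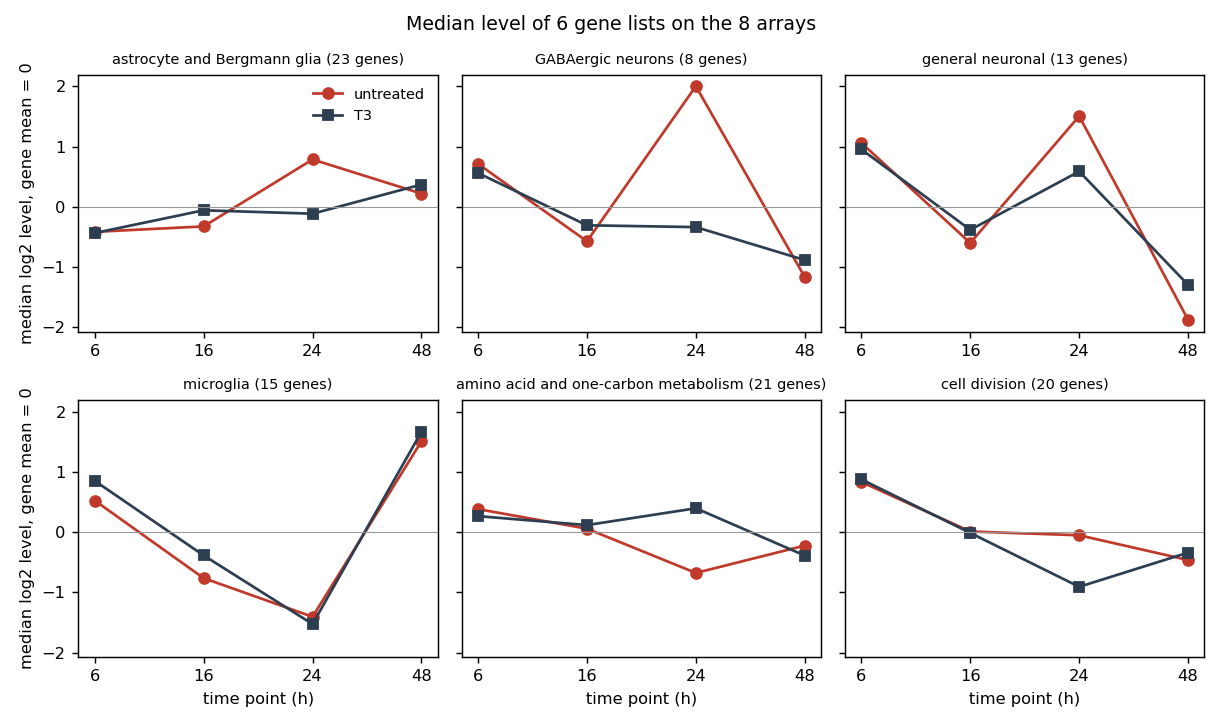
Median log2 level of 6 gene lists on the 8 arrays, each gene set to a mean of 0, against time point, untreated in red circles and T3 in dark squares. At 24 h the untreated culture stands above the T3 culture for astrocyte, GABAergic, general neuronal and cell division genes and below it for amino acid genes, and both stand lowest for microglial genes.

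Some technical values go beside these results. The median signal of the 8 arrays ran from 14.8 to 17.7 and was 17.7 on both 24 h arrays. The ratio of the 3′ to the 5′ control probe-set of Actb, a sign of shortened RNA when high, was 1.69 for untreated 24 h, the lowest of the 8, and 1.85 to 2.55 elsewhere, and for Gapdh it was 2.46, within 1.61 to 2.95. Xist, which female cells express, read 1037.2 at untreated 24 h, against 15.2, 538.5 and 827.1 at untreated 6, 16 and 48 h, and 836.1 at T3 24 h, against 11.6, 651.1 and 1034.7. The Y-linked gene Eif2s3y read 199.8 at untreated 24 h, against 418.3, 299.6 and 181.3. The part of these values in the results above was not tested.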

How the data were processed

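Total RNA of 8 cultures was labelled after 2 rounds of cDNA synthesis and hybridized to Affymetrix mouse arrays. The deposited values are signal intensity on a linear scale, 1 per probe-set and array, which the authors computed with GCOS and MAS5 (versions not given in the sources used here). Each array had been scaled to a mean of 100 after trimming 2% at either end. The table holds 45101 probe-sets. Without 64 controls 45037 were used, of which 34945 have a single gene symbol, 9160 have none and 932 have several. Values under 1 were raised to 1 before log2 was taken. Distance from the range is the log2 ratio of the 24 h signal to the nearest of the 3 others. A gene is represented by its brightest probe-set over the 8 arrays.

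Genes are named when they are among the 20 farthest above or below the range (distance after adding 32), belong to a gene list or lie at the 2-fold line. Genes outside this rule were chosen after their values were seen. The members and lists were chosen with earlier results of these data known. An exact permutation test of 1 array against 3 cannot go below 0.25, so none was run. Alternatives were quantile normalization, median centring, an added 32, other signal minimums and fold thresholds, other probe-sets, and leaving out arrays. Python 3.11.15, pandas 2.3.3, numpy 2.4.6 and matplotlib 3.10.9 were used, and the counting was checked on simulated data.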

Additional observations from a re-analysis of the deposited data

Results flagged for a closer look

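The genes flagged here come from the leading genes and the lists, some of them drawn up after the values were seen. Their share over all genes was not taken, so no count is read from them. In each, the untreated 24 h culture lay at least 0.5 (log2) outside the range of untreated 6, 16 and 48 h. T3 24 h lay on the opposite side of T3 6, 16 and 48 h. Each value is the log2 distance from the nearest array of the range, 1 array against 3. The difference between the treatments was not tested. Above at untreated 24 h and below at T3 24 h were the glial genes Aldh1l1 (2.65 and -0.11), Sparcl1 (0.82 and -0.61), Bcan (1.95 and -0.01) and Cnp (1.26 and -0.24), the neuronal genes Elmod1 (3.05 and -0.04) and Kit (0.61 and -0.02), and the glutamate receptor subunits Grik5 (0.77 and -0.04) and Grm7 (1.33 and -0.87). Below at untreated 24 h and above at T3 24 h were Atf4 (-0.64 and 0.09), Asns (-0.52 and 0.07), Cars (-1.18 and 0.01), Nars (-0.79 and 0.05), Shmt2 (-0.56 and 0.28), Slc3a2 (-0.65 and 0.05), Slc6a9 (-0.70 and 0.20), Eif4ebp1 (-1.04 and 0.17) and Nupr1 (-0.53 and 0.06), all of the amino acid response or the tRNA synthetases, beside the RNA gene Snhg12 (-1.35 and 0.02) and Vegfa (-0.51 and 0.17). In most of these the T3 value is nearly at the edge of its range. Elmod1, Grik5 and Grm7 entered through the untreated 24 h array alone and had to be above the untreated range.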

How the results depend on the processing

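The probe-sets above and below the range, 4581 and 4327, became 11349 and 9529 with no filter on the signal, 2561 and 2361 with the brightest probe-set per gene, and 1890 and 1791 with the mean of a gene's probe-sets. With 50 or more required on all 4 arrays, 2713 were above. Quantile normalization gave 4343 and 4765 and median centring 3333 and 5771, and under both the balance turned toward lower values. The counts at least 2-fold above and below, 693 and 222, were 1973 and 1423 with no filter, 451 and 121 with a minimum of 100, 142 and 58 with 50 on all 4 arrays, 364 and 108 with the brightest probe-set, 219 and 79 with the mean, 351 and 41 with 32 added, 1449 and 715 at 1.5-fold and 260 and 49 at 3-fold. Of these, the members on the same side among the T3 arrays, 341 and 181, were 787 and 611, 221 and 97, 62 and 41, 158 and 89, 101 and 66, and 170 and 34 under the first 6 of those settings in that order. Leaving out 1 array gave 5021 to 6926 above, 4838 to 7717 below, 744 to 1899 at least 2-fold above, 289 to 1089 at least 2-fold below, 355 to 513 shared above and 184 to 193 shared below. The highest values came without untreated 6 h, and for the shared above and shared below without T3 6 h. Without T3 6 h the shares of all probe-sets outside the T3 range rose as well. The share above went from 19.8% to 36.7% and the share below from 19.7% to 36.5%. Without untreated 48 h, 436 were at least 2-fold below.

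All 20 leading genes of each side stayed at least 2-fold outside the range under quantile normalization, median centring and an added 32. Of 223 list medians under the alternatives 168 stayed within 1.5 times, 47 moved by more with the same sign and 8 changed sign. With 32 added, the medians were 1.21 for GABAergic neurons, -1.08 for microglia, and -0.74 for endothelium. With other probe-sets of the genes the interferon response had -0.44. The median of granule cell precursors was -0.072 with other probe-sets of the genes. That of meninges and mural cells ran from -1.05 without untreated 6 h to 0.55 without untreated 48 h, with 0.04 without untreated 16 h. Cell division ran from -0.52 without untreated 48 h to 0.17 without untreated 6 h, and immediate early genes from -0.20 without untreated 16 h to 0.40 without untreated 48 h. Reference genes had 0.069 with the mean of probe-sets and 0.24 with other probe-sets, and sex-linked genes 2.90 with other probe-sets. The cause was not tested. No paired analysis was possible because the comparisons are between time points, the T3 and untreated arrays that share a batch pair treatments only, and the labels carry no replicate numbers. With 1 array per condition the number of arrays limits the precision, and no error can be put on any value.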

Other observations

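Some glutamate receptor genes are given by their values, from a list drawn up after the values were seen. Of the list's 10 genes that entered, 6 did so through the untreated 24 h array alone and had to be above the range, so no count is read from it. Grin2c, an NMDA receptor subunit counted among the granule neuron genes, was inside the range, at 41.0 against 342.6, 179.1 and 20.5. Grm5, a metabotropic receptor, read 108.0 at untreated 24 h, against 10.8, 0.8 and 1.9 at untreated 6, 16 and 48 h, and 9.7 at T3 24 h, against 11.3, 6.0 and 2.9. Grm3, found in glia and neurons, read 211.7, against 70.3, 22.2 and 19.3, and 20.1 at T3 24 h. The kainate receptor subunit Grik3 had 150.7, against 19.2, 5.1 and 4.4, and 2.2 at T3 24 h. By contrast Grik2, of the same family, read 130.6, against 69.9, 21.8 and 5.9, and 113.4 at T3 24 h, against 55.8, 24.7 and 8.7, above the range on both arrays.

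Chemokines, also listed after the values were seen, were below the untreated range in 9 of 14 genes and above in none, and T3 24 h was below its range for 5 and above for 1. Pf4, a platelet and macrophage chemokine, read 20.4 at untreated 24 h, against 67.8, 87.3 and 80.1, and 24.0 at T3 24 h, against 69.7, 65.2 and 128.2. Cxcl2, which attracts neutrophils, read 107.4, against 129.8, 173.2 and 222.4, but 421.5 at T3 24 h, against 116.9, 156.7 and 172.8. Cxcl12 and Cxcl1 lay inside both ranges.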
